A study of Mus musculus with 8 samples.

Results

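The platelet-derived growth factor (PDGF) genes of the mouse, 4 ligand genes (Pdgfa, Pdgfb, Pdgfc and Pdgfd) and 2 receptor genes (Pdgfra and Pdgfrb), were followed in E10.5 ventricles with and without PKN2 in cardiomyocytes. They are 6 of the 55291 genes in the count table, and all 6 were among the 26820 genes with enough counts to be tested. The family was chosen by the measured values of 1 ligand, Pdgfb, whose counts were much higher in the knockout, and the other members were taken by name. The change of Pdgfb is therefore given as a description with no test, while Pdgfa, Pdgfc, Pdgfd, Pdgfra and Pdgfrb were not chosen for their own values and were tested.

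RNA came from the ventricular tissue of embryos on a C57BL/6N background (strain label C57BL/6), in 4 cKO libraries (Pkn2 fl/fl with the XMLC2-Cre transgene) and 4 control libraries (Pkn2 fl/fl littermates negative for Cre). Both groups carried the floxed Pkn2 alleles, so that the comparison is between embryos with and without Cre, and no control carried the transgene alone. XMLC2-Cre is active in cardiomyocytes, whereas the RNA was taken from the whole ventricle, which also holds endocardial, endothelial, epicardial and blood cells. The labels call the libraries biological replicates, and the study's methods give single animals or embryos as its general unit.

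PDGF ligands are secreted as dimers, PDGF-AA, -AB, -BB, -CC and -DD, and bind receptor tyrosine kinases that pair on the cell surface and phosphorylate each other. PDGF receptor alpha is a mark of mesenchymal, epicardium-derived and neural crest cells in the developing heart, and PDGF receptor beta of pericytes and vascular smooth muscle. Pdgfb is made mainly by endothelial cells and by megakaryocytes and platelets, and PDGF-B from the endothelium recruits mural cells to new vessels, while PDGF-C and PDGF-D are secreted in a latent form that proteases cut to release the active domain.

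The 250 bases before the RefSeq start (GRCm38.p6) are shown, 5′ to 3′ on the strand of the gene. They are given for the ligand and the receptor with the highest level in controls. The remaining gene, Pdgfd, is the single one with a TATA box among the 4 genes searched. Capitals mark a GC box (GGGCGG, or CCGCCC where it lies on the other strand) or a TATA box (TATAAA), and both strands were searched. Windows in the promoter table were searched for 4 of the 6 genes, and not for Pdgfb or Pdgfrb. Pdgfa was read before 1 of its 2 RefSeq starts, at chr5:138994945-138995194 on the minus strand, Pdgfra at chr5:75152001-75152250 on the plus strand, and Pdgfd at chr9:6168236-6168485 on the plus strand.
Pdgfa: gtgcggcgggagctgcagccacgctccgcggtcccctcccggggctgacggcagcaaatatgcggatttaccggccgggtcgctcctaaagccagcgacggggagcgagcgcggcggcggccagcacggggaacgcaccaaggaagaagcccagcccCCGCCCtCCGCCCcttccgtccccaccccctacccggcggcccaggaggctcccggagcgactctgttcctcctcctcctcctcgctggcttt
Pdgfra: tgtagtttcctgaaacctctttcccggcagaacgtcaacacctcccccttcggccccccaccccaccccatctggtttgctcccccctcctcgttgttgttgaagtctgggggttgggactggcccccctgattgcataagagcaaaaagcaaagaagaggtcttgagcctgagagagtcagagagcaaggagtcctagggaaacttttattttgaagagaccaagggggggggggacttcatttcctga
Pdgfd: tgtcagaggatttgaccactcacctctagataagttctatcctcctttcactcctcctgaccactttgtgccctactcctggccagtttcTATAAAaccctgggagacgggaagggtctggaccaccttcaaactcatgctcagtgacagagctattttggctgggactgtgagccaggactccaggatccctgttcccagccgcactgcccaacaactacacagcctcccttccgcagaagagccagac

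The Pdgfa window held 2 GC boxes and 72.4% G and C. The window before the other Pdgfa start held 1 GC box and 66.4% G and C. The Pdgfra window held neither motif and 54.4% G and C, as did the Pdgfc window at 50.8%, and the Pdgfd window held 1 TATA box and 53.6% G and C. Over all 32851 windows of this length in the table, 32.74% held a GC box and 12.37% a TATA box, and the median content of G and C was 52.4%. These matches describe the letters only.

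Library totals lay between 47559845 and 56660938 counts, so that the least abundant count of any member, 105 for Pdgfb in control 1, still rests on many reads. Values are given as CPM, counts relative to the TMM-adjusted size of each library, for comparisons between libraries, and as the deposited TPM, which is scaled for transcript length, for comparisons between genes. In the check of the targeted gene, Pkn2 was at 83.08, 77.61, 79.64 and 84.28 CPM in cKO 1 to 4 and at 132.7, 139.4, 152.2 and 152.7 CPM in control 1 to 4, which is 56.25% of the control mean (a difference of −0.83 on the log2 scale with SE 0.060, adjusted p = 7.67e-06 by the edgeR quasi-likelihood fit). Among all tested genes 0.858% passed an adjusted p of 0.05 (230 of 26820), with 138 higher (0.515%) and 92 lower (0.343%) in cKO. Groups without overlap, in either direction, were found for 6.91% of tested genes. The median log2 fold change over all tested genes was −0.00.

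Pdgfb, which encodes the B chain, lies on chromosome 15 of GRCm38 from 79995874 to 80014808, minus strand (ENSMUSG00000000489). It was at 12.62, 5.78, 3.96 and 16.6 CPM in cKO 1 to 4 and at 1.94, 2.92, 2.47 and 2.22 CPM in control 1 to 4. The groups did not overlap, and cKO 1 and cKO 4 stood well above the other two cKO libraries. Means were 9.74 ± 5.90 CPM for cKO and 2.39 ± 0.417 CPM for controls (± SD of 4 libraries), so that the cKO mean was 407.4% of the control mean and the fitted log2 fold change was 2.03. This is the contrast for which the gene was chosen, and 3.14% of all tested genes were likewise higher in every cKO library than in every control library.

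The spread within the groups also differed. The highest cKO library held 4.19 times the CPM of the lowest, against 1.51 times in the controls, and the coefficient of variation was 60.6% in cKO and 17.5% in controls. The lowest cKO library, cKO 3, was 1.354 times the highest control library, control 2. With each library left out in turn the log2 fold change of Pdgfb ran from 1.65 to 2.29. In this tissue, more cells that express Pdgfb and more Pdgfb RNA per cell cannot be told apart, and the like holds for every gene below.

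The nearest genes at a mean of at least 1 CPM on either side of Pdgfb, Cbx7 at 63.2 kb (a Polycomb subunit) and Rpl3 at 63.0 kb (a ribosomal protein), had log2 fold changes of −0.05 and −0.02 (adjusted p = 0.964 and 0.951 in edgeR). The strand setting of the counting was not given in the sources used here, and the antisense gene Gm41361, which overlaps Pdgfb by 2478 bases, held 0 to 4 counts in any library.

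**Figure D1:**
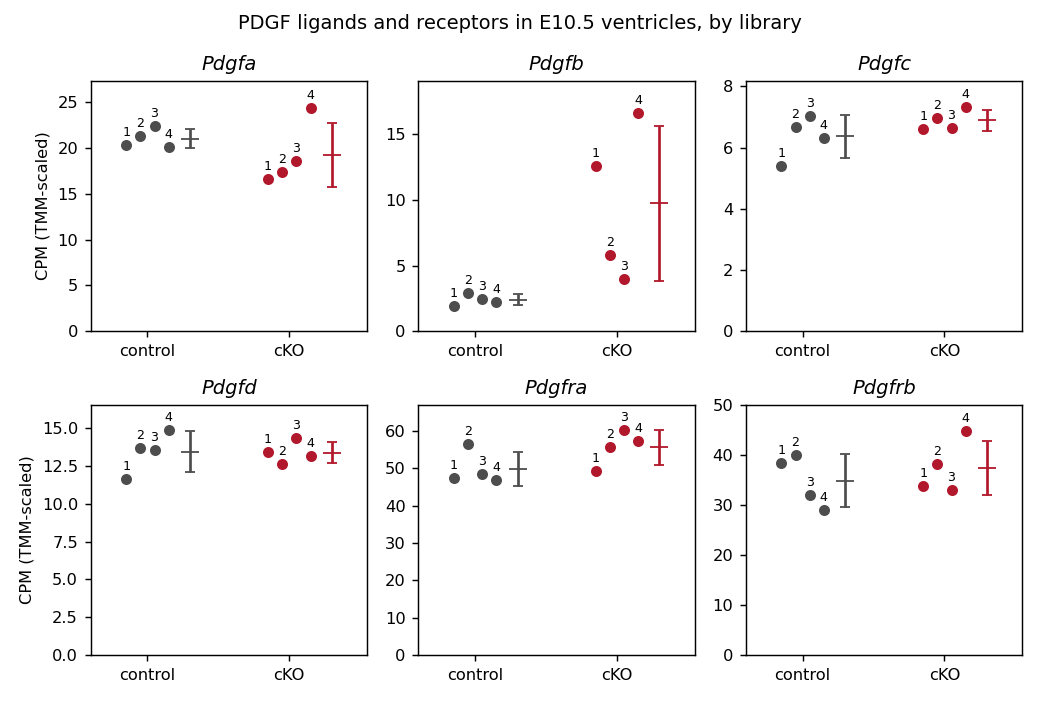
TMM-scaled CPM (linear y axes from 0) of the 6 PDGF genes in 4 control libraries (grey) and 4 cKO libraries (red), 1 point per library with its replicate number, and the mean with SD as a bar to the right of each group. The 4 cKO points of Pdgfb, from 3.96 to 16.6 CPM, lie above all control points, while the groups overlap for each of the other 5 genes.

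None of the other 5 members passed the threshold in the edgeR fit (0 of 5, against 0.858% of all tested genes, 0.515% higher and 0.343% lower), and 0 of the 5 had an unadjusted p under 0.05 in that fit. DESeq2 also called 0 of 5, and 0 were called in any of the alternative settings, where the lowest adjusted p was 0.165. Their log2 fold changes lay between −0.26 and 0.23 over all these settings.

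Pdgfa encodes the A chain, a ligand of receptor alpha, and lies on chromosome 5 from 138976014 to 138997370, minus strand. It was at 16.61, 17.39, 18.62 and 24.42 CPM in cKO 1 to 4 and at 20.35, 21.32, 22.38 and 20.09 CPM in control 1 to 4. In 3 of the 4 cKO libraries Pdgfa was below every control library in CPM, whereas cKO 4 was above every one. In TPM, cKO 4 (22.5) was below control 2 (22.95). The log2 fold change was −0.13 (95% confidence interval −0.35 to 0.09, adjusted p = 0.706 from edgeR), and without cKO 4 it was −0.26 (adjusted p = 0.165). The interval allows a cKO level between 0.786 and 1.07 times the control level. Pdgfa overlaps the antisense transcript 6330403L08Rik by 2315 bases, and that gene held 257 to 575 counts against 837 to 1368 for Pdgfa. Whether reads of the shared bases were told apart by strand is not given in the sources used here.

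Pdgfc and Pdgfd, whose products are activated by proteases, had overlapping groups. Pdgfc (chromosome 3, 81036416 to 81214040, plus strand) was at 6.61, 6.98, 6.64 and 7.34 CPM in cKO 1 to 4 and at 5.41, 6.68, 7.05 and 6.33 CPM in control 1 to 4. Only cKO 4 was above all controls, and the log2 fold change was 0.11 (95% confidence interval −0.13 to 0.36, adjusted p = 0.781 from edgeR). Pdgfd (chromosome 9, 6168584 to 6378850, plus strand) was at 13.45, 12.65, 14.35 and 13.16 CPM in cKO 1 to 4 and at 11.66, 13.71, 13.57 and 14.9 CPM in control 1 to 4. All 4 cKO values of Pdgfd fell within the control range, with a log2 fold change of −0.01 (95% confidence interval −0.20 to 0.19, adjusted p = 0.994 from edgeR), the sign of which turned in 11 of the alternative settings.

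Pdgfra, the receptor for all chains other than PDGF-D, lies on chromosome 5 from 75152292 to 75198215, plus strand, and was the most highly counted member. It was at 49.21, 55.62, 60.13 and 57.2 CPM in cKO 1 to 4 and at 47.36, 56.6, 48.56 and 46.78 CPM in control 1 to 4. The cKO 3 and cKO 4 libraries were above all controls, and control 2 lay among the cKO values. The means were 55.5 ± 4.62 and 49.8 ± 4.58 CPM (SD, n = 4 each). On the log2 scale cKO was higher by 0.16 with SE 0.074 (adjusted p = 0.393 and unadjusted p = 0.0510 in edgeR), and its interval allows a cKO level between 0.9995 and 1.24 times the control level.

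Pdgfrb, the receptor for the B and D chains, lies on chromosome 18 from 61045150 to 61085061, plus strand. It was at 33.69, 38.21, 32.93 and 44.7 CPM in cKO 1 to 4 and at 38.44, 40.05, 31.94 and 28.99 CPM in control 1 to 4. The groups overlapped over most of their range, and the log2 fold change was 0.10 (95% confidence interval −0.13 to 0.33, adjusted p = 0.787 from edgeR). The cKO 4 library held the highest CPM of Pdgfa, Pdgfb, Pdgfc and Pdgfrb among all 8 libraries, and control 1 the lowest of Pdgfb, Pdgfc and Pdgfd.

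On the length-scaled scale, the levels in controls followed the order Pdgfa (19.7 ± 2.40 TPM), Pdgfra (13.7 ± 1.76), Pdgfrb (11.4 ± 2.001), Pdgfd (8.12 ± 0.759), Pdgfc (3.45 ± 0.356) and Pdgfb (1.37 ± 0.260; SD, n = 4 each). The values of Pdgfra and Pdgfrb overlapped, and those of all other neighbours in the order did not. In cKO ventricles the order was Pdgfa (17.4 ± 3.54 TPM), Pdgfra (15.7 ± 0.915), Pdgfrb (12.4 ± 1.96), Pdgfd (8.63 ± 0.339), Pdgfb (5.85 ± 3.56) and Pdgfc (3.84 ± 0.292). Here only Pdgfrb and Pdgfd were apart, and Pdgfb, the 6th gene in controls, came 5th with values from 2.35 to 9.96 TPM that spanned those of Pdgfc and Pdgfd.

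Pdgfb made up 22.0%, 11.1%, 7.33% and 22.1% of the summed TPM of the 4 ligands in cKO 1 to 4, and 3.75%, 4.65%, 4.35% and 3.93% in control 1 to 4. The share of Pdgfa was 42.5% to 53.0% in cKO and 56.2% to 62.4% in controls, so that these ranges did not overlap either, though the share falls by construction as that of Pdgfb grows. Pdgfc (9.34% to 12.6% in cKO, 9.99% to 11.6% in controls) and Pdgfd (18.5% to 28.4% and 22.9% to 29.2%) kept overlapping shares. All 4 ligands together came to 35.7 ± 6.33 TPM in cKO and 32.6 ± 2.98 TPM in controls, and to 29.9 ± 3.63 and 31.3 ± 2.72 TPM with Pdgfb left out. The receptors summed to 28.1 ± 2.36 TPM in cKO and 25.1 ± 3.53 TPM in controls, of which Pdgfra took 56.0% ± 3.72 and 54.5% ± 2.93. Sums and shares are given as descriptions, since a test of each gene stands above and Pdgfb was chosen for its change.

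**Figure D2:**
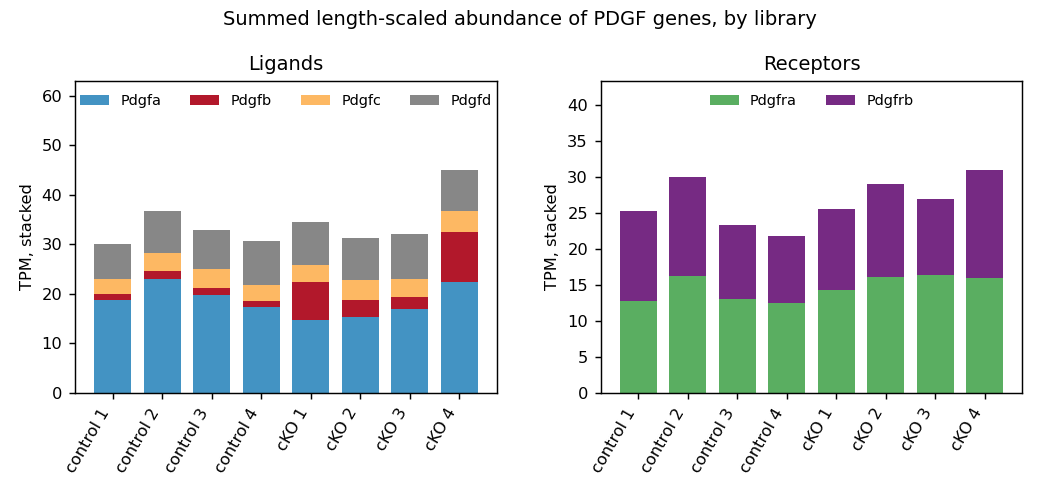
Deposited TPM of the 4 ligand genes (left, stacked) and the 2 receptor genes (right, stacked) in each of the 8 libraries, with linear y axes from 0. The Pdgfb segment, 1.13 to 1.71 TPM in controls, reaches 7.62 and 9.96 TPM in cKO 1 and cKO 4, and the tallest ligand stack is that of cKO 4 at 45.0 TPM.

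Around the ligands and receptors, 76 genes of the pathway were counted in 7 lists by role. Of these, 1 passed the threshold (1.32%, against 0.858% of all tested genes), 45 had a log2 fold change above 0, and the median was 0.04 against 0.00 over all genes. The called gene was Egr1, and 22 of the 76 had an unadjusted p under 0.05, which 12.8% of all tested genes had. DESeq2 called 9 of the 76 (and 5.46% of all genes to which it gave an adjusted p), namely Plat, Fyn, Pik3r2, Akt2, Map2k2, Cbl, Egr1, Spry4 and Kitl, and limma-voom called Egr1 alone (and 0.626% of all genes). With cKO 3 left out edgeR called 10 of the 76, and 744 of all genes, against 230 of all genes with every library in.

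Of the genes that act before or at the receptor, edgeR called 0, with 5 at an unadjusted p under 0.05 (12.8% of all tested genes). Among 8 proteases and co-receptors that activate or bind PDGF, 4 had a positive log2 fold change and the median was 0.01. Plat, the tissue plasminogen activator that cuts PDGF-C, was at 55.51 to 74.67 CPM in cKO and 49.89 to 52.75 CPM in controls (log2 fold change 0.28, adjusted p = 0.104 from edgeR). The groups did not overlap for Plat, as for 3.14% of all tested genes in that direction. Plau, the urokinase that cuts PDGF-D, was at 2.54 to 4.33 CPM and 1.74 to 2.91 CPM (log2 fold change 0.41, adjusted p = 0.431 from edgeR). Of 19 adaptors and enzymes that dock on activated receptors, 9 were above 0 with a median of −0.00. The kinase gene Fyn had a log2 fold change of 0.24 (adjusted p = 0.130) and Pik3r2, a regulatory subunit of PI3-kinase, one of −0.22 (adjusted p = 0.0703, both from edgeR).

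The relay through Ras, the MAP kinases and Akt also held 0 calls among 14 genes, at a median log2 fold change of −0.04. In edgeR 3 of these had an unadjusted p under 0.05, as did 12.8% of all tested genes. Akt2 was at 119.5 to 132.6 CPM in cKO and 140.4 to 152.1 CPM in controls (log2 fold change −0.19, adjusted p = 0.118 from edgeR), and Map2k2, which encodes MEK2, at 111.4 to 120.2 CPM and 127.3 to 133.5 CPM (−0.15, adjusted p = 0.184). Among 9 dampeners of receptor signaling, 0 were called, 2 had an unadjusted p under 0.05 in edgeR (12.8% of all tested genes) and the median was −0.03. Sla, an adaptor of blood cells, had the largest difference (log2 fold change 1.11, adjusted p = 0.147), followed by the ubiquitin ligase gene Cbl (0.22, adjusted p = 0.125).

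Genes that growth factor receptors switch on early, with their feedback inhibitors, came next. All 14 of 14 had a log2 fold change above 0, with a median of 0.32 against 0.00 over all genes. In edgeR 8 had an unadjusted p under 0.05 (12.8% of all tested genes), and 1 was called (0.515% of all tested genes were called higher). Egr1, an immediate early transcription factor, was at 29.92, 22.67, 21.17 and 21.62 CPM in cKO 1 to 4 and at 18.02, 17.07, 15.32 and 13.3 CPM in control 1 to 4. Every cKO library was above every control library for Egr1, as for 3.14% of all tested genes. Egr1 rose by 0.58 on the log2 scale (SE 0.115, adjusted p = 0.0249 by the edgeR quasi-likelihood fit).

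The call of Egr1 was lost without cKO 1 (adjusted p = 0.0786) and without control 1, 2, 3 or 4 (0.0612, 0.0528, 0.0915 and 0.107, all from edgeR), with log2 fold changes from 0.46 to 0.65 over the 8 fits. Myc, the growth-promoting transcription factor, was at 34.66, 20.57, 15.94 and 44.56 CPM in cKO 1 to 4 and at 16.69, 14.08, 18.02 and 17.11 CPM in control 1 to 4. As for Pdgfb, cKO 4 and cKO 1 stood highest for Myc and cKO 3 lowest, but that library fell within the control range (log2 fold change 0.81, adjusted p = 0.104 from edgeR). Spry4, a feedback inhibitor chosen after its values were seen, was at 23.38 to 34.7 CPM in cKO and 18.44 to 21.75 CPM in controls (log2 fold change 0.48, adjusted p = 0.0564 from edgeR).

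Relatives of the family made up the last lists. Of 7 genes for the class III receptors KIT, CSF1R and FLT3 and their ligands, 5 were above 0 and 0 were called, with a median of 0.36. In edgeR 3 had an unadjusted p under 0.05 (12.8% of all tested genes). DESeq2 called Kitl among the 4 to which it gave an adjusted p (5.46% of all genes in that fit). Csf1r, the macrophage growth factor receptor, lies 20.5 kb from Pdgfrb. It was at 11.75, 3.76, 2.49 and 7.14 CPM in cKO 1 to 4 and at 1.59, 4.11, 1.84 and 1.90 CPM in control 1 to 4 (log2 fold change 1.42, adjusted p = 0.104 from edgeR). Kit, 376.7 kb from Pdgfra, had a log2 fold change of 0.43 (adjusted p = 0.320). Of 5 VEGF relatives of the PDGF ligands, 3 were above 0 and 0 were called, also with DESeq2. In edgeR 1 had an unadjusted p under 0.05 (12.8% of all tested genes). Vegfa, the main endothelial growth factor, was at 163.8 to 268.6 CPM in cKO and 145.1 to 160.7 CPM in controls (log2 fold change 0.40, adjusted p = 0.119), and Pgf at 6.37 to 7.75 and 5.66 to 7.47 CPM (0.11, adjusted p = 0.803).

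**Figure D3:**
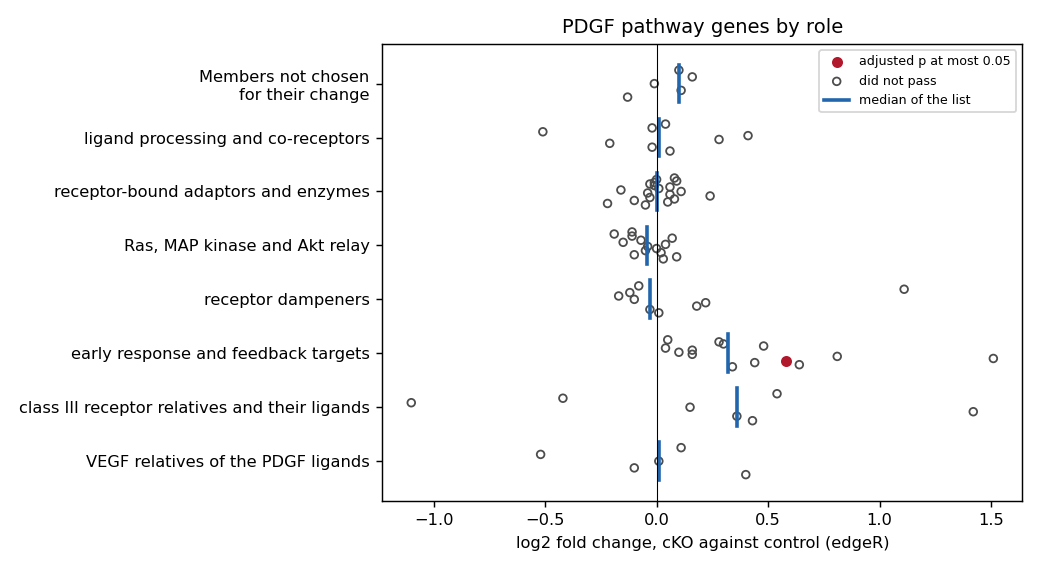
The log2 fold change of cKO against control (x axis, edgeR) for each of the 76 pathway genes in 7 lists by role, and in the top row for the 5 members not chosen for their change, with a blue bar at each median. Egr1 at 0.58 is the single filled point (adjusted p at most 0.05), and the early response list at a median of 0.32 lies wholly to the right of 0.

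Marker lists of the cells known to make Pdgfb were followed in the same libraries. Written as log2 CPM relative to the control mean, Pdgfb was at 2.40, 1.28, 0.73 and 2.79 in cKO 1 to 4 and at −0.28, 0.30, 0.06 and −0.09 in control 1 to 4. The mean of 14 endothelial and endocardial markers was at 0.59, 0.25, 0.19 and 0.64 in cKO 1 to 4 and at 0.06, 0.04, −0.17 and 0.07 in control 1 to 4. The cKO libraries thus stood in 1 order on both, cKO 4 above 1, 2 and 3, and all cKO values of the endothelial list were above all control values. The early response genes, at 0.51, 0.24, 0.15 and 0.66 in cKO 1 to 4 and −0.08, −0.07, 0.10 and 0.05 in control 1 to 4, followed that order too. Library totals ran in the same order, at 56197203 counts in cKO 4, 50506018 in cKO 1, 47877626 in cKO 2 and 47559845 in cKO 3. A link of the order to depth was not tested.

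Of the endothelial and endocardial markers, 14 of 14 had a positive log2 fold change, with a median of 0.37, and 6 were called (42.86%, against 0.515% of all tested genes higher in cKO), all higher: Pecam1, Cdh5, Tie1, Emcn, Flt1 and Nfatc1 (log2 fold changes 0.36 to 0.72, adjusted p = 0.0178 to 0.0484 from edgeR). Cdh5, the endothelial cadherin, was at 339.4, 286.1, 247.1 and 353 CPM in cKO 1 to 4 and at 239.2, 223.7, 170.7 and 217.8 CPM in control 1 to 4. Emcn, an endothelial sialomucin, was at 81.76 to 137.5 CPM in cKO and 61.51 to 71.9 CPM in controls. Npr3, a marker of the endocardium and the most abundant gene of the list, did not pass (log2 fold change 0.12, adjusted p = 0.382). The summed level of the list was 2025 to 2559 CPM in cKO and 1594 to 1891 CPM in controls. The count of 6 fell to 0 without cKO 1 or without any single control, and to 2 without cKO 4, and it was 8 without cKO 2 and 9 without cKO 3. Over all genes, the calls were 71 without cKO 1, 67 to 135 without a control and 231 without cKO 4. They were 284 without cKO 2 and 744 without cKO 3, against 230 with all libraries. DESeq2 called 12 of the 14 (5.46% of all genes in that fit) and limma-voom 3 (0.626%). In edgeR 13 of the 14 had an unadjusted p under 0.05, as did 12.8% of all tested genes.

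Tip cells, the leading endothelial cells of a sprout and a known source of PDGF-B, were represented by 11 genes. Of these 9 were above 0 and 0 were called, with a median of 0.12, and DESeq2 called 2 (5.46% of all genes in that fit). In edgeR 5 had an unadjusted p under 0.05, as did 12.8% of all tested genes. The count was 2 without cKO 2 (Dll4 and Kcne3) and 3 without cKO 3 (these and Plaur), against 284 and 744 calls over all genes in those fits. Their mean stood at 0.58 and 1.11 in cKO 1 and cKO 4, against −0.03 and −0.09 in cKO 2 and cKO 3 and −0.15 to 0.19 in controls. Lamb1 and Nid2, the most abundant of them, had log2 fold changes of 0.08 and −0.20 (adjusted p = 0.755 and 0.184). Chosen after their values were seen, Kcne3 was at 2.40, 0.582, 0.332 and 7.71 CPM in cKO 1 to 4 and 0.212 to 0.539 CPM in controls, and Dll4 at 22.54 to 33.94 CPM in cKO and 13.74 to 20.47 CPM in controls (log2 fold change 0.61, adjusted p = 0.0503 from edgeR).

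The 10 megakaryocyte and platelet markers were all above 0, at a median of 1.05 on the log2 scale, and 0 were called, also with DESeq2. In edgeR 9 had an unadjusted p under 0.05, as did 12.8% of all tested genes. Their mean was at 1.02, 0.78, 0.11 and 1.91 in cKO 1 to 4, in the order of Pdgfb, but at −0.39, 1.03, −0.18 and −0.46 in control 1 to 4, so that control 2 lay among the cKO values. Itga2b, the platelet integrin chain, was at 32.16, 29.17, 20.38 and 60.96 CPM in cKO 1 to 4 and at 13.56, 28.17, 13.97 and 12.38 CPM in control 1 to 4 (log2 fold change 1.07, adjusted p = 0.0912 from edgeR). Pf4, platelet factor 4, had a log2 fold change of 1.14 (adjusted p = 0.144). Without control 2 the count was 5 (135 over all genes), and without cKO 3 it was 4 (744 over all genes). The median ran from 0.61 to 1.51 with 1 library left out. The sum of the list was 46.5 to 151.9 CPM in cKO and 29.1 to 73.7 CPM in controls.

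The 10 macrophage markers were all above 0, at a median of 2.19 on the log2 scale, and 2 were called (2 of 10, against 0.515% of all tested genes higher in cKO). These were C1qb and C1qc, chains of complement C1q, at 1.02 to 3.95 and 0.831 to 3.31 CPM in cKO against 0.177 to 0.767 and 0.200 to 0.499 CPM in controls (log2 fold changes 2.30 and 2.54, adjusted p = 0.0293 and 0.0131 from edgeR). Mrc1, the mannose receptor, was at 1.97 to 5.54 CPM in cKO and 0.961 to 1.75 CPM in controls (log2 fold change 1.16, adjusted p = 0.0814 from edgeR). The mean of the list was at 2.86, 1.18, 0.90 and 2.10 in cKO 1 to 4 and at 0.00, 0.89, −0.25 and −0.64 in control 1 to 4, and its summed level was 9.62 to 38.9 CPM in cKO and 4.67 to 10.9 CPM in controls. The count of 2 ran from 0, without cKO 1, control 3 or control 4, to 7 without cKO 3, and was 1 without cKO 4 or control 1 and 3 without control 2. Calls over all genes were 71, 87 and 69 without cKO 1, control 3 and control 4, and 744 without cKO 3. They were 231, 67 and 135 without cKO 4, control 1 and control 2. DESeq2 called 4 of the 8 to which it gave an adjusted p (5.46% of all genes in that fit). The limma-voom fit called 0 (0.626% of all genes). In edgeR all 10 macrophage markers had an unadjusted p under 0.05, as did 12.8% of all tested genes. The list shares Csf1r with the receptor relatives above. Over these 4 lists, the genes with 0 counts in any library were Esm1, Gp1bb and Tyrobp. The part of each cell type in the level of Pdgfb was not tested.

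**Figure D4:**
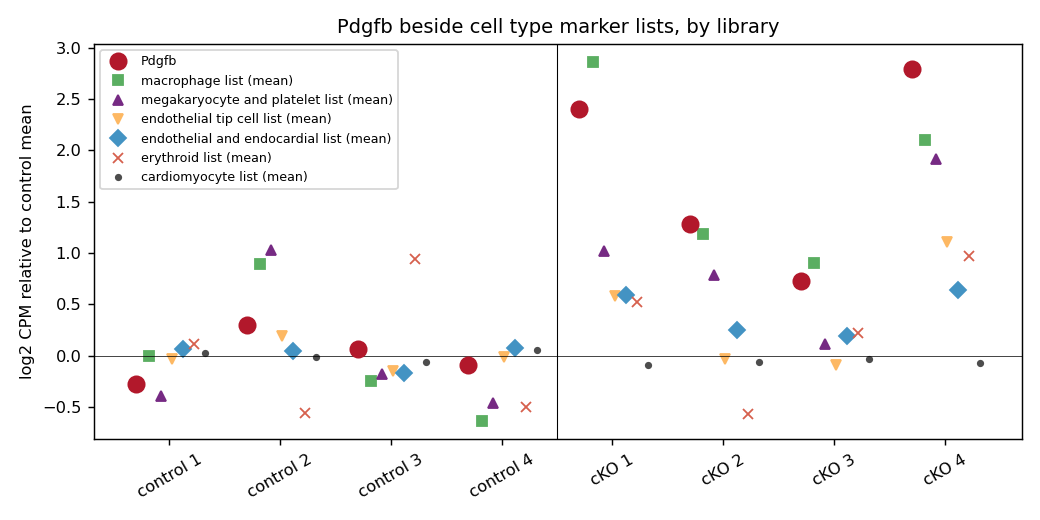
Pdgfb (large red points) and the means of 6 marker lists in each of the 8 libraries, as log2 CPM relative to the control mean (y axis), with points of 1 library set side by side and a vertical line between control and cKO libraries. In cKO 1 and cKO 4, Pdgfb at 2.40 and 2.79 lies above all lists other than the macrophage list in cKO 1 (2.86), and the cardiomyocyte list stays near 0 in every library.

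Lists for the cells known to carry the receptors held 0 calls each in edgeR with all 8 libraries. Of 11 mural cell markers (pericyte and smooth muscle) 6 were above 0 and 0 were called (DESeq2 called 0), at a median of 0.09. In edgeR 5 had an unadjusted p under 0.05, as did 12.8% of all tested genes. The list summed to 3236 to 3688 CPM in cKO and 3436 to 4148 CPM in controls. Acta2 made up most of that sum, at 2275 to 2732 CPM in cKO and 2553 to 3265 CPM in controls. This smooth muscle actin, which is also made by embryonic cardiomyocytes, had a log2 fold change of −0.16 (adjusted p = 0.431) and Cnn1, calponin, one of 0.15 (adjusted p = 0.321). Tagln, chosen after its values were seen, had one of −0.35 (adjusted p = 0.194, all from edgeR). Its means were 6.4 CPM but 569.1 TPM in cKO, and 8.1 CPM but 705.2 TPM in controls. The cause of that gap between scales was not tested. Of 7 epicardial markers 2 were above 0 and 0 were called, at a median of −0.16. In edgeR 2 had an unadjusted p under 0.05 (12.8% of all tested genes). DESeq2 called 2, Aldh1a2 and Tbx18 (5.46% of all genes in that fit). Tbx18, a transcription factor of the epicardium, was at 48.14 to 65.38 CPM in cKO and 69.61 to 77.39 CPM in controls (log2 fold change −0.30, adjusted p = 0.104 from edgeR). Upk3b, an epicardial and mesothelial gene and the most abundant of that list, was at 114.8 to 175.4 CPM in cKO and 150.1 to 177.1 CPM in controls with overlap (−0.20, adjusted p = 0.498). Without cKO 3, where 744 of all genes were called, the mural list held 3 calls, all higher (Cspg4, Mcam and Notch3), and the epicardial list 1, lower (Tbx18). Without cKO 4 the epicardial list held 1, lower (Aldh1a2), and with the replicate number as a block it held 2 (Aldh1a2 and Tbx18). Those fits called 231 and 380 of all genes. The 9 cushion and mesenchymal markers had a median of −0.00 with 0 called and 0 at an unadjusted p under 0.05 in edgeR, and DESeq2 called 0. Col3a1 and Col1a2, fibrillar collagen genes, had log2 fold changes of −0.00 and −0.13 (adjusted p = 0.994 and 0.730 from edgeR).

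Cardiomyocyte markers, which check the tissue, summed to 35584 to 37420 CPM in cKO and 35973 to 39550 CPM in controls. Of these 11 genes 3 were above 0 and 0 were called, with a median of −0.03. In edgeR 2 had an unadjusted p under 0.05 (12.8% of all tested genes), and DESeq2 called Nkx2-5 (5.46% of all genes in that fit). Actc1, cardiac actin, and Myh7, a ventricular myosin heavy chain, had log2 fold changes of −0.05 and −0.02 (adjusted p = 0.812 and 0.959 from edgeR). The cKO libraries were not ordered on this list as they were on Pdgfb, at −0.09, −0.06, −0.03 and −0.07 in cKO 1 to 4.

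Among 14301 genes at a mean of at least 1 CPM, the 5 whose values over the 8 libraries lay closest to those of Pdgfb were Clec9a, Pcdh17, Clec1b, Myct1 and Coro1a. Closeness was the root mean square difference between 2 genes in log2 CPM relative to the control mean, which was 0.26 for Clec9a, 0.28 for Pcdh17, 0.33 for Clec1b, and 0.41 for both Myct1 and Coro1a. Because Pdgfb was chosen for its high values in cKO, genes like it are high in cKO by construction, and their changes were not tested.

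Clec9a, a C-type lectin gene, was at 4.42, 1.54, 0.850 and 5.46 CPM in cKO 1 to 4 and at 0.628, 1.14, 0.777 and 0.601 CPM in control 1 to 4. Pcdh17, a protocadherin gene, was at 14.84, 5.84, 3.96 and 13.85 CPM in cKO 1 to 4 and at 3.09, 3.13, 2.12 and 2.44 CPM in control 1 to 4. Clec1b, which encodes the platelet receptor CLEC-2, was at 6.75, 3.37, 2.99 and 10.21 CPM in cKO 1 to 4 and at 1.24, 3.13, 1.36 and 1.66 CPM in control 1 to 4. Clec9a and Clec1b lie 3528 bases apart on chromosome 6, whereas the others are on chromosomes 14, 10 and 7. On the other side of Clec9a, 8 bases away on the minus strand, lies Clec1a. It was at 0.788 to 5.73 CPM in cKO and 0.265 to 0.539 CPM in controls. Whether the reads of these neighbours were kept apart was not tested.

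Myct1, a gene of endothelial and blood-forming cells, was at 9.74, 6.28, 4.002 and 11.25 CPM in cKO 1 to 4 and at 2.46 to 3.28 CPM in controls, and Coro1a, an actin regulator of blood cells, at 13.49, 5.80, 3.19 and 11.3 CPM in cKO 1 to 4 and at 1.65, 5.25, 2.16 and 1.66 CPM in control 1 to 4. Pcdh17 and Myct1 were higher in every cKO library than in every control library, as were 3.14% of all tested genes. Control 2 reached the cKO range for Clec9a, Clec1b and Coro1a. Further down that order came Pf4 (39th), Itga2b (53rd), Kcne3 (82nd), Dll4 (220th), Cdh5 (306th) and Pecam1 (348th). Macrophage markers were not among the genes ranked by name. Pdgfb less the mean of a list was higher in cKO than in controls by 0.04 for the macrophage list. That difference was 0.84 for the megakaryocyte, 1.38 for the endothelial and 1.41 for the tip cell list, as a description with no test. The other PDGF genes were far from Pdgfb, from Pdgfc at 2516th to Pdgfa at 10168th.

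**Figure D5:**
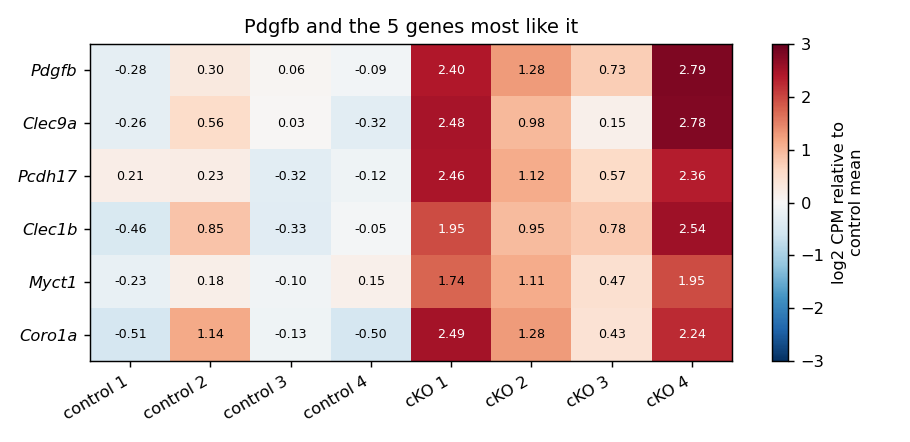
Pdgfb and the 5 genes closest to it (rows) in the 8 libraries (columns), each cell giving log2 CPM relative to the control mean of the gene on a color scale from −3 to 3. The cKO 1 and cKO 4 columns are darkest in every row, from 1.74 to 2.79, and cKO 3 is the palest of the cKO columns.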

How the data were processed

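RNA from E10.5 ventricular tissue was sequenced in 8 libraries, 4 cKO and 4 control, after poly(A) selection. The deposited counts are raw reads per gene symbol, and the deposited TPM values were scaled for transcript length by the authors. The submitters' processing notes name FastQC, Trim Galore 0.6.7, HISAT2 2.2.1, StringTie 2.2.1, featureCounts and DESeq2, without their roles, and the study names the nf-core RNA-seq workflow. The methods give GRCm39, whereas gene positions deposited with the TPM values match GRCm38 (85.83% of 37782 gene starts within 1000 bases, against 3.263% for GRCm39), and all coordinates are GRCm38. Per-sample columns left unused numbered 0. Pairs of libraries within a group differed beyond counting error in 12 of 12 cases (chi-square per degree of freedom 12.0 to 39.07).

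Genes holding 8 or more counts in total were tested with edgeR 4.0.16 in R 4.3.3 (quasi-likelihood F test, TMM, condition alone, Benjamini-Hochberg adjustment over 26820 genes) and called at an adjusted p of at most 0.05. Log2 CPM used a prior count of 2. The p-values measure the spread between these libraries. The drop of Pkn2 was also given an exact two-sided permutation test over 4 against 4 (p = 0.0286, the smallest that it can give). Alternatives were DESeq2 1.42.0, limma-voom (limma 3.58.1), edgeR with DESeq2 size factors, with filterByExpr, with no filter and with the replicate number as a block, limma on log2(TPM + 1) and log2(TPM + 0.1) for genes with a mean of at least 0.1 TPM, log2(TPM + 1) without that filter, shares from CPM in place of TPM, and each library left out in turn.

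The members, the lists and the rule for naming genes were chosen with earlier results of these data known. Named were the 6 members, Pkn2, pathway genes that were called, the 2 genes of each pathway list with the largest change at a mean of at least 1 CPM, the 2 most abundant and any called genes of each marker list, and the 5 genes closest to Pdgfb. Neighbouring and overlapping genes were named by position. Promoter windows were RefSeq sequences of GRCm38.p6. The proteomic experiments were not analysed here.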

Additional observations from a re-analysis of the deposited data

Results flagged for a closer look

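In 78 groups of 4 libraries (members in CPM and TPM, sums, shares and list means), 1 library lay far from the other 3 in 4 cases, with a gap to its nearest neighbour above Dixon's 95% critical share of the range of the group. Chance gives about 1 such case in 20 groups. The mean of the ligand processing and co-receptor genes was 0.18 in cKO 4 on the log2 scale relative to controls, against −0.05 to −0.02 in the other cKO libraries (gap 0.892 of the range). The mean of the class III receptor relatives and their ligands was 0.14 in control 3, against −0.07 to −0.03 in the other controls (0.843). The mean of the endothelial and endocardial markers was −0.17 in control 3, against 0.04 to 0.07 in the other controls (0.868). Pdgfra was at 16.27 TPM in control 2, against 12.5 to 13.1 TPM in the other controls (0.858). In CPM no PDGF ligand or receptor passed that cutoff. Pdgfra was also highest among controls in control 2 on that scale, at 56.6 CPM against 46.78 to 48.56 CPM in the other controls.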

How the results depend on the processing

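Over all genes, the 230 calls became 867 with DESeq2, 878 with no filter, 380 with the replicate block, 3 and 10 with limma on log2(TPM + 1) and log2(TPM + 0.1), 1 on log2(TPM + 1) without a filter, and 67 (without control 1) to 744 (without cKO 3) with 1 library left out. Pathway calls, 1 in the report, were 9 with DESeq2, 11 with no filter, 3 with the replicate block, 0 in the 3 fits to TPM, and 0 to 10 (without cKO 3) with 1 library left out. The 5 tested members had 0 calls in each of these settings, and the replicate block changed no call among them. Same-numbered cKO and control libraries did not deviate together (r = −0.19, −0.03, 0.01 and −0.14 over 14302 genes, which are not independent), so the numbers were not taken as pairs. The change of Pdgfd ran from −0.06 to 0.05 with 1 library left out, and turned positive with DESeq2 (0.0002192), DESeq2 size factors (7.081e-05), filterByExpr (0.004642), no filter (0.001691), limma on TPM (0.08, 0.09 with the smaller pseudocount, 0.08 without a filter) and without cKO 2 (0.03), cKO 4 (0.01), control 2 (0.01) or control 4 (0.05). On CPM, which is not scaled for length, the shares of the ligands were 39.19% in cKO and 48.7% in controls for Pdgfa, 5.507% in controls for Pdgfb, 14.22% and 14.69% for Pdgfc and 31.1% in controls for Pdgfd, and those of the receptors 59.85% and 58.96% for Pdgfra and 40.15% and 41.04% for Pdgfrb. The cause of these differences was not tested, other than the length scaling itself. Pdgfb had a log2 difference of 1.38 on log2(TPM + 1), where the pseudocount shrinks low values. The lowest count of any member was 105, for Pdgfb in control 1. The part of counting error in the spread between libraries was not tested, and the 4 libraries per group limit the precision.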

Other observations

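Erythroid and hepatic markers varied between libraries within both groups. The 8 erythroid markers, led by the embryonic globins Hba-x and Hbb-y, summed to 1358 to 4767 CPM in cKO and 1490 to 4612 CPM in controls, at a median of 0.27 on the log2 scale and with 0 called (0 at an unadjusted p under 0.05 in edgeR, and 0 called by DESeq2). Hbb-y was at 1317, 486.2, 1057 and 1836 CPM in cKO 1 to 4 and at 941.2, 569.2, 1787 and 611.6 CPM in control 1 to 4. Hba-x had a log2 fold change of 0.28 (adjusted p = 0.814 from edgeR) and Hbb-y one of 0.26 (0.828). Control 3, at the top of the erythroid values among controls, was at 2.47 CPM for Pdgfb, and control 2, at the bottom, at 2.92 CPM. In cKO 1 to 4 the erythroid list mean was 0.52, −0.57, 0.22 and 0.97 on the log2 scale relative to controls. Pdgfb was at 12.62, 5.78, 3.96 and 16.6 CPM in these libraries, so that the 2 highest were the same on both. A link between erythroid markers and Pdgfb was not tested. Of 7 hepatic markers 5 were tested and 0 were called. In edgeR 4 had an unadjusted p under 0.05 (12.8% of all tested genes). DESeq2 called 1, Ttr, of the 3 to which it gave an adjusted p (5.46% of all genes in that fit). The tested markers summed to 27.7 CPM in control 1 against 1.27 to 5.41 CPM in the other 7 libraries. Afp, alpha-fetoprotein, was at 15.9 CPM in control 1 and at 0.0829 to 2.24 CPM in the others, and Apoa2, an apolipoprotein, had a log2 fold change of −0.25 (adjusted p = 0.821). Control 1 also held the lowest Pdgfb value of the 8 libraries, 1.94 CPM.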
